A study of Homo sapiens with 12 samples.

Results

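The 9 genes PHGDH, PSAT1, PSPH, SHMT1, SHMT2, MTHFD2, MTHFD1L, ALDH1L2 and SFXN1, which serve serine synthesis and one-carbon metabolism, were followed through the Viperin overexpression (OE) experiment. They were taken by name from the 60617 genes in the count tables, and all 9 passed the filter on low counts that left 23041 genes to test. They were selected on measured values, since the insulin response of PSAT1 was already known when the pathway was chosen, so what insulin did to these genes is given as a description: calls are counted once beside the share over all genes, and nothing is read from them. Reads were mRNA-seq read pairs from 12Z cells, a single immortalized line of human endometriotic epithelial cells, in 4 groups of 3 libraries. Control cells carried the pCAG empty vector and received vehicle, and Insulin cells carried the same vector and received 100 nM insulin. Viperin cells carried pCAG Viperin and received vehicle, and Viperin + Insulin cells carried pCAG Viperin and received 100 nM insulin. Every group was transiently transfected, kept without serum for 4 h and then treated for 24 h, so the Control cells were transfected and serum-starved too. Whether a non-targeting siRNA was given before the plasmids is not clear from the methods. A protocol note mentions pBabe for the empty vector, while the treatment given for every sample is pCAG. According to the methods, each group was made in 3 independent experiments.

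Serine is built from the glycolytic intermediate 3-phosphoglycerate by PHGDH, PSAT1 and PSPH in turn. Serine hydroxymethyltransferase, SHMT1 in the cytosol and SHMT2 in mitochondria, then moves a one-carbon unit from serine to tetrahydrofolate, and the mitochondrial enzymes MTHFD2 and MTHFD1L carry that unit on to formate, which feeds purine and thymidylate synthesis in the cytosol. Several of these genes are textbook targets of ATF4, a transcription factor of the amino acid and stress responses that growth factor signalling through mTORC1 can raise. Viperin, encoded by RSAD2, is an interferon-inducible radical S-adenosylmethionine enzyme.

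The libraries held 25979022 to 46889002 read pairs assigned to genes on the reverse strand. RSAD2 checked the labels, at 2.28 to 5.19 CPM (read counts scaled to the size of the library) in the 6 libraries with empty vector and 384 to 665 CPM in the 6 with pCAG Viperin. Keratins KRT8, KRT18 and KRT19 were high (mean over libraries 1290, 824 and 464 CPM) while the epithelial adhesion genes EPCAM and CDH1 were near 0 (0.434 and 1.20 CPM) and mesenchymal VIM and COL1A1 were high (1530 and 1413 CPM). Immune markers summed to at most 1.98 CPM in any library. Of the exon bases of CD68, 1 of these 5 markers, 81.6% are shared with another annotated gene on the same strand, so its level is uncertain. Reads that mapped to more than 1 place made up 13.9% of Control library 1 and 12.1% of Viperin library 3, against 9.44% to 11.0% in the other 10, and the fits were repeated without either of these libraries and without both.

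To show what lies before the genes whose levels are described here, the bases upstream of a start site were read from RefSeq (GRCh38.p14), which gave a promoter for 6 of the 9 genes. PSPH, SHMT2 and ALDH1L2 had no entry. Shown here are 3 upstream stretches, of PSAT1, whose level differed most between vehicle and insulin, of SFXN1, which was also higher with insulin, and of SHMT1, which was lower. They are printed on the strand of the gene, with capitals at each CCAAT or its reverse complement. The SHMT1 stretch ends 13 bases before its start site, since those 13 bases lie in an annotated exon. Positions given below are counted from the start site.
PSAT1, chr9:78296875-78297124, plus strand: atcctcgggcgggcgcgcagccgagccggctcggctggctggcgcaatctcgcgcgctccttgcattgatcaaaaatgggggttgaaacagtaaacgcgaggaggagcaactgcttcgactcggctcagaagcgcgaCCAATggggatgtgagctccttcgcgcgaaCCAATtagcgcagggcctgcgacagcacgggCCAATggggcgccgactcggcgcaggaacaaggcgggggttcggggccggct
SFXN1, chr5:175478310-175478559, plus strand: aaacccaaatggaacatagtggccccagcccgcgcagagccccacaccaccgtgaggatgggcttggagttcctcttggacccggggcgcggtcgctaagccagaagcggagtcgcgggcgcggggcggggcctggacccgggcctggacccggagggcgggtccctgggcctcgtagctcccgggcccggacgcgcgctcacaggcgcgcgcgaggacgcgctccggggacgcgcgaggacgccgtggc
SHMT1, chr17:18363564-18363800, minus strand: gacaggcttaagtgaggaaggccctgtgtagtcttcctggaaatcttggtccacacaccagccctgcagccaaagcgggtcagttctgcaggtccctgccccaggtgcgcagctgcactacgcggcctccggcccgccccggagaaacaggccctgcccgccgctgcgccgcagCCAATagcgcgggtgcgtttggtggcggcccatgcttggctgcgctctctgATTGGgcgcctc
Within 250 bases before the start, PSAT1 held 3 copies of CCAAT, at 113, 83 and 52 bases, and SHMT1 held 2, at 76 and 25 bases, while SFXN1 held none. On both strands, CCAAT stood in 5 of the 6 promoters found (PHGDH, PSAT1, SHMT1, MTHFD2 and MTHFD1L) and in 32.0% of 35116 RefSeq windows of the same length. The letters TGATGNAA, the core of the element that ATF4 binds with C/EBP proteins, stood in 1 of the 6, MTHFD1L, and in 3.14% of all windows. The E-box CACGTG stood in MTHFD1L as well and in 6.34% of all windows. None of these motifs overlapped another, and MTHFD1L had 4 RefSeq start sites, so that it had more windows to be matched in. A match of letters is a description of the window and not a measured binding site.

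Levels can be compared between genes only per length of transcript, and per kb of the canonical GENCODE transcript the order of the 9 genes in Control cells was PHGDH, SHMT2, PSAT1, SFXN1, MTHFD2, MTHFD1L, SHMT1, PSPH and ALDH1L2. PHGDH stood at 81.6 ± 2.82 CPM per kb (SD, n = 3), SHMT2 at 70.8 ± 1.43 and PSAT1 at 46.4 ± 2.30. At the lower end PSPH stood at 16.5 ± 1.70 and ALDH1L2 at 0.173 ± 0.0536 CPM per kb. Neighbours in this order did not overlap between libraries, except SFXN1 (33.4 ± 1.00) and MTHFD2 (32.5 ± 0.818). In Insulin cells the order was the same but for PSPH (20.6 ± 0.840) and SHMT1 (20.1 ± 0.528), whose libraries overlapped. In Viperin and Viperin + Insulin cells it was that of Control. The order depends on which length is used: per kb of all annotated exons PSAT1 came first with a mean of 53.4 CPM per kb over the 12 libraries, and PHGDH came after SHMT2, SFXN1 and MTHFD1L with 17.1, since exons of other transcripts make its summed length 9187 bases against 1866 for the canonical transcript.

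**Figure D1:**
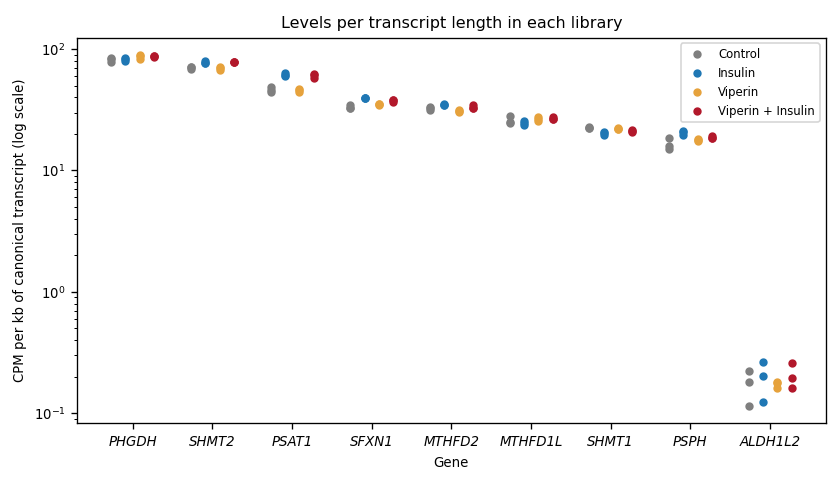
Level of each gene in CPM per kb of its canonical transcript, on a log axis, with 1 point per library and colours for the 4 groups. Genes run from the highest mean (PHGDH) to the lowest (ALDH1L2), which lies far below the other 8.

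Between vehicle and insulin, the serine and one-carbon genes did not move as a block. PSAT1, SHMT2, PSPH, SFXN1 and MTHFD2 were higher in every library with insulin than in every library without it, with either plasmid, and SHMT1 was lower in every one. PHGDH, MTHFD1L and ALDH1L2 overlapped. With empty vector 5 of the 9 lay apart and higher, against 9.69% of all genes tested, and 1 apart and lower, against 10.5%. With pCAG Viperin 5 lay apart and higher, against 11.0%, and 1 apart and lower, against 10.1%. At an adjusted p under 0.05 (edgeR quasi-likelihood test, Benjamini-Hochberg over all 23041 genes), 4 of the 9 were called higher in Insulin than in Control, against 2.53% of all genes, and 1 lower, against 2.96%. In Viperin + Insulin against Viperin, 2 were called higher, against 2.17%, and 0 lower, against 2.39%. At 0.001, the threshold of the study, 3 were called with empty vector (PSAT1, PSPH and SFXN1), against 1.18% of all genes, and 1 with pCAG Viperin (PSAT1), against 1.11%. Since the genes were chosen with these comparisons known, nothing is read from these counts. The median log2 fold change over the 9 genes was 0.13 with empty vector, beside -0.01 over all genes, and 0.10 with pCAG Viperin, beside 0.00.

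**Figure D2:**
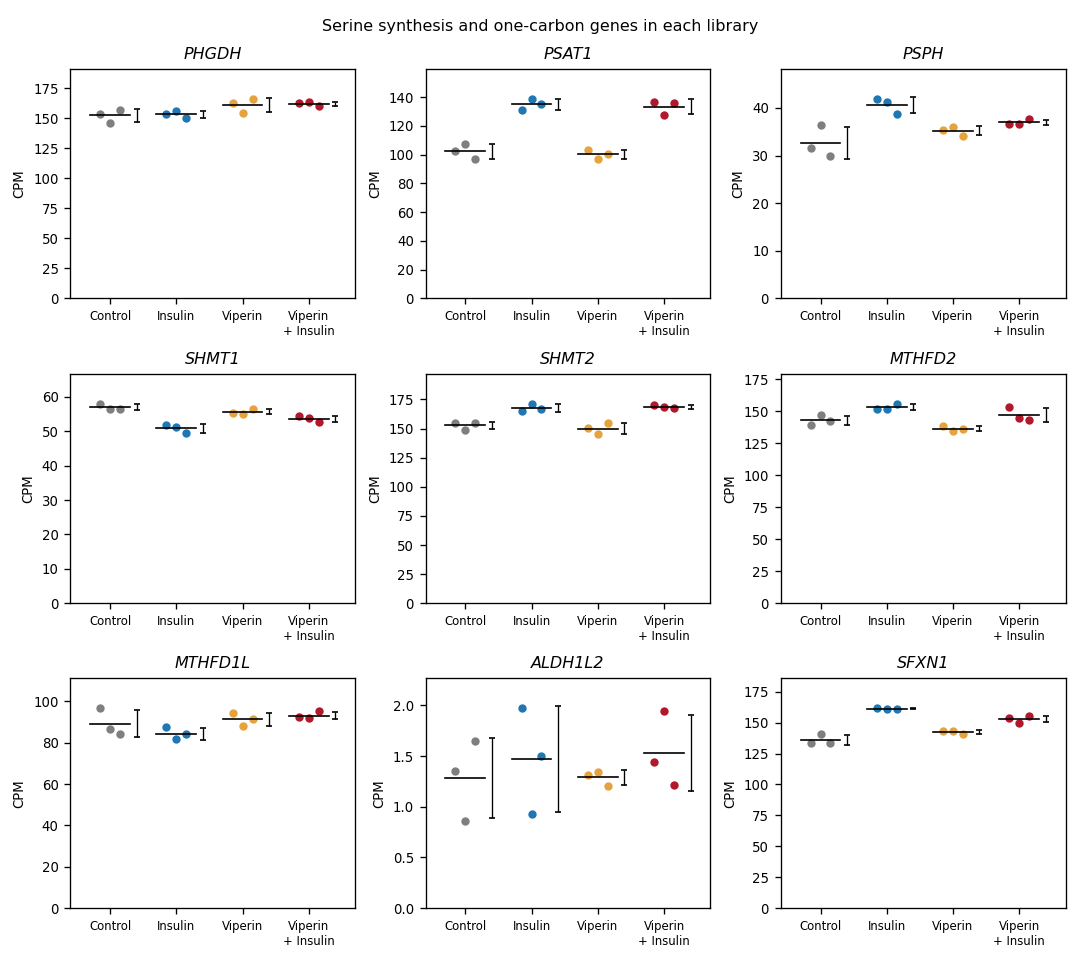
CPM of each of the 9 genes in each library, 1 point per library, with a line at the mean and a bar of 1 SD (n = 3). PSAT1 lies at 97.1 to 107 CPM without insulin and at 128 to 139 CPM with it, and PHGDH keeps within 146 to 166 CPM throughout.

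PHGDH, the first enzyme of serine synthesis, oxidises 3-phosphoglycerate (gene ENSG00000092621.12, chr1:119648411-119744218, plus strand). Its 3 Control libraries held 154, 146 and 157 CPM and its 3 Insulin libraries 154, 156 and 150 CPM. Viperin libraries held 162, 154 and 166 CPM and Viperin + Insulin libraries 163, 163 and 160 CPM. The libraries with and without insulin overlapped for both plasmids, with log2 fold changes of 0.01 ± 0.04 (SE) in each case and 95% intervals of -0.07 to 0.08 and -0.06 to 0.09. PHGDH held at least 3979 counts in every library. Gene IDs are given in the version of the count tables, and coordinates are those of GENCODE 44 (GRCh38).

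PSAT1, the aminotransferase of the second step, had the largest insulin response of the 9 genes (ENSG00000135069.14, chr9:78297125-78330093, plus strand). It was at 102, 107 and 97.2 CPM in Control and 131, 139 and 135 CPM in Insulin. The Viperin libraries held 103, 97.1 and 101 CPM and the Viperin + Insulin libraries 137, 128 and 136 CPM. All 6 libraries with insulin lay above all 6 without. The log2 fold change was 0.40 ± 0.04 (32.1% higher) with empty vector and 0.41 ± 0.04 (32.9% higher) with pCAG Viperin.

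Within each library, the ratio of PSAT1 to PHGDH counts sets the second enzyme against the first without any scaling between libraries. The ratio was 0.666, 0.733 and 0.621 in Control and 0.855, 0.890 and 0.902 in Insulin. It was 0.636, 0.629 and 0.606 in Viperin and 0.838, 0.781 and 0.849 in Viperin + Insulin. No ratio without insulin reached the lowest with insulin. PSPH to PHGDH went from 0.215 ± 0.0299 in Control (SD, n = 3) to 0.265 ± 0.00731 in Insulin. With pCAG Viperin it was 0.219 ± 0.0138 under vehicle and 0.228 ± 0.00589 under insulin, so that the gap with pCAG Viperin was within the spread of its vehicle libraries.

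PSPH, the phosphatase that releases serine in the last step, was the lowest of the 3 serine synthesis genes per length (ENSG00000146733.14, chr7:56011051-56051604, minus strand). It held 31.5, 36.4 and 29.9 CPM in Control and 41.9, 41.3 and 38.8 CPM in Insulin. With pCAG Viperin it held 35.4, 36.0 and 34.2 CPM without insulin and 36.5, 36.7 and 37.6 CPM with it. With empty vector the fold change was 0.32 ± 0.06 on the log2 scale (24.8% higher). With pCAG Viperin it was 0.07 ± 0.05, with an interval of -0.04 to 0.18.

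**Figure D3:**
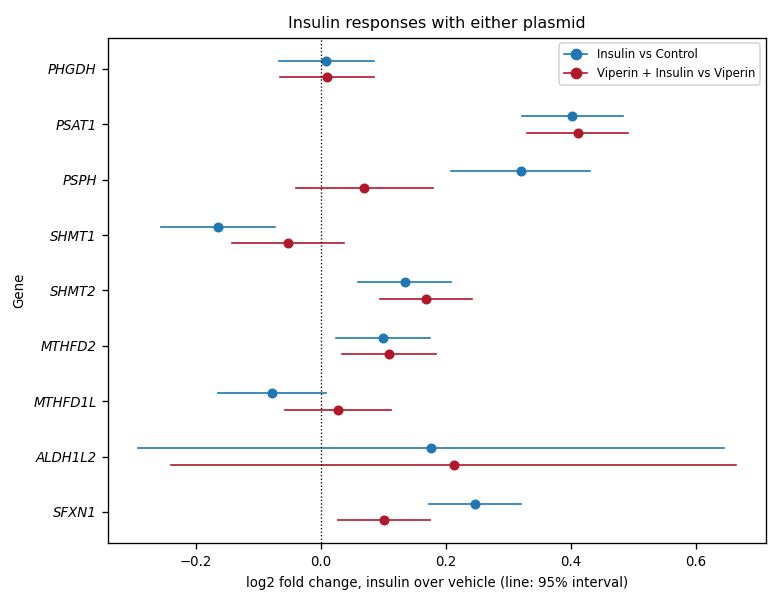
Log2 fold change of each gene between insulin and vehicle, with empty vector (Insulin vs Control) and with pCAG Viperin (Viperin + Insulin vs Viperin), and lines for 95% intervals. PSAT1 sits near 0.4 in both, while PSPH and SFXN1 sit further from 0 with empty vector than with pCAG Viperin.

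The 2 hydroxymethyltransferases differed in direction. SHMT2, the mitochondrial enzyme (ENSG00000182199.11, chr12:57229573-57234935, plus strand), held 155, 149 and 154 CPM in Control and 165, 172 and 166 CPM in Insulin. It held 150, 146 and 155 CPM in Viperin and 170, 168 and 167 CPM in Viperin + Insulin. The groups lay apart for both plasmids, with log2 fold changes of 0.13 ± 0.04 (9.75% higher) and 0.17 ± 0.04 (12.4% higher). Over the alternatives they ran from 0.12 to 0.15 with empty vector and from 0.15 to 0.19 with pCAG Viperin.

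SHMT1, the cytosolic enzyme (ENSG00000176974.20, chr17:18327860-18363563, minus strand), held 58.0, 56.4 and 56.5 CPM in Control and 51.9, 51.2 and 49.3 CPM in Insulin. The Viperin libraries held 55.4, 55.0 and 56.5 CPM and the Viperin + Insulin libraries 54.5, 53.8 and 52.7 CPM. Both pairs of groups lay apart, by -0.16 ± 0.05 on the log2 scale with empty vector (10.8% lower) and by -0.05 ± 0.04 with pCAG Viperin. Over the alternatives the first ran from -0.18 to -0.14. The ratio of SHMT2 to SHMT1 counts within a library was 2.66, 2.64 and 2.73 in Control and 3.17, 3.35 and 3.37 in Insulin. It was 2.71, 2.65 and 2.74 under Viperin alone and 3.13, 3.13 and 3.17 under Viperin + Insulin. Every library with insulin had a ratio above every library without it.

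**Figure D4:**
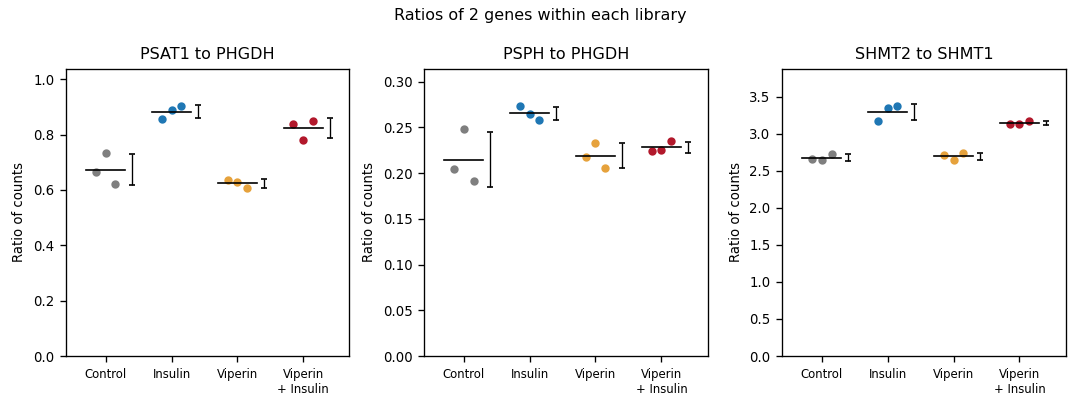
Ratio of counts of 2 genes within each library for PSAT1 to PHGDH, PSPH to PHGDH and SHMT2 to SHMT1, with a line at the mean and a bar of 1 SD (n = 3). The ratio of SHMT2 to SHMT1 is 2.64 to 2.74 without insulin and 3.13 to 3.37 with it.

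MTHFD2, the mitochondrial methylenetetrahydrofolate dehydrogenase and cyclohydrolase (ENSG00000065911.12, chr2:74186172-74217565, plus strand), was higher with insulin by 7.13% with empty vector and by 7.80% with pCAG Viperin. It held 140, 147 and 143 CPM in Control and 152, 152 and 156 CPM in Insulin. With pCAG Viperin it held 139, 135 and 136 CPM without insulin and 154, 145 and 143 CPM with it. The groups did not overlap, at 0.10 ± 0.04 and 0.11 ± 0.04 on the log2 scale.

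MTHFD1L, the mitochondrial enzyme that releases formate (ENSG00000120254.15, chr6:150865679-151101887, plus strand), overlapped between vehicle and insulin. Control libraries held 96.6, 86.8 and 84.1 CPM and Insulin libraries 87.4, 81.6 and 84.2 CPM. Viperin libraries held 94.4, 88.2 and 91.4 CPM and Viperin + Insulin libraries 92.2, 91.8 and 95.2 CPM. The 2 log2 fold changes were -0.08 ± 0.04 and 0.03 ± 0.04.

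ALDH1L2, which oxidises mitochondrial 10-formyltetrahydrofolate (ENSG00000136010.14, chr12:105019784-105107643, minus strand), was the only one of the 9 near the detection limit, with 26 to 72 counts per library. With empty vector it stood between 0.858 and 1.65 CPM under vehicle and between 0.927 and 1.97 CPM under insulin. With pCAG Viperin it stood between 1.20 and 1.35 CPM under vehicle and between 1.21 and 1.94 CPM under insulin. The 95% intervals of its insulin responses ran from -0.29 to 0.64 and from -0.24 to 0.66 on the log2 scale, so a change of the size seen for PSAT1 was not detectable at this depth.

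SFXN1, which carries serine into mitochondria (ENSG00000164466.13, chr5:175477062-175529742, plus strand), held 134, 141 and 133 CPM in Control and 162, 161 and 161 CPM in Insulin. The Viperin libraries held 143, 144 and 141 CPM and the Viperin + Insulin libraries 154, 150.0 and 155 CPM. The Insulin libraries were the highest of all 12 and the Control libraries the lowest, without overlap of any 2 groups. The log2 fold change was 0.25 ± 0.04 (18.6% higher) with empty vector and 0.10 ± 0.04 (7.30% higher) with pCAG Viperin.

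Several measures of the libraries moved with insulin beside these genes. The mitochondrial share of assigned reads ran from 5.59% to 6.64% over Control libraries and from 5.14% to 5.18% over Insulin libraries. With pCAG Viperin it ran from 4.82% to 5.34% under vehicle and from 4.28% to 4.52% under insulin. The 9 epithelial markers summed to 2589 to 2660 CPM in Control and 2688 to 2862 in Insulin, and to 2452 to 2543 in Viperin and 2586 to 2698 in Viperin + Insulin. KRT8, KRT18 and KRT19 made up most of these sums (means over libraries 1290, 824 and 464 CPM). Singly, 0 of the 9 were called higher and 1 lower (MUC1) with insulin and empty vector, beside 2.53% and 2.96% of all genes. With pCAG Viperin 1 was called higher (KRT8) and 0 lower, beside 2.17% and 2.39%. With single libraries left out, 0 or 1 were higher and 0 or 1 lower with empty vector. With pCAG Viperin 0 to 2 were then higher and 0 lower. The sums of the 10 stromal and mesenchymal markers overlapped between vehicle and insulin. They were 5357 to 5803 and 5506 to 5695 CPM with empty vector and 6042 to 6275 and 6010 to 6284 CPM with pCAG Viperin. Singly, 2 of the 10, PDGFRB and MME, were called lower with insulin with either plasmid, beside 2.96% and 2.39% of all genes. None was called higher in the main fit. With empty vector 1 was higher and 1 lower without Control library 1, and 2 were higher and 1 lower without Control 1 and Viperin 3. With pCAG Viperin 1 to 3 were lower with single libraries left out, and 0 higher. The part of these measures in the responses was not tested. In these bulk samples, fewer cells expressing a gene and less RNA of it per cell cannot be told apart.

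The next question was whether Viperin itself changed these genes, with or without insulin. With vehicle, none of the 9 was called in Viperin against Control, against 1.25% of all genes called higher and 1.04% lower. At an unadjusted p under 0.05 there was 1, PHGDH, against 13.5% of all genes, and DESeq2 also gave 0 at an adjusted p and 1 unadjusted. PHGDH differed by 0.08 ± 0.04 on the log2 scale (adjusted p = 0.330, edgeR), with overlapping libraries. PSAT1 differed by -0.03 ± 0.04 (adjusted p = 0.859), with an interval of -0.11 to 0.06. SFXN1 libraries lay apart and higher with Viperin (0.07 ± 0.04, adjusted p = 0.427) and MTHFD2 libraries apart and lower (-0.07 ± 0.04, adjusted p = 0.455). Neither passed the test. The share of all genes lying apart was not computed for this comparison, so nothing is read from libraries lying apart in it.

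Under insulin, MTHFD1L was the one gene of the 9 that was called between Viperin + Insulin and Insulin, higher by 0.14 ± 0.04 on the log2 scale (10.4%, adjusted p = 0.0460, edgeR), against 2.09% of all genes called higher and 0.990% lower. The call did not hold with RLE size factors (adjusted p = 0.0590) or DESeq2 (adjusted p = 0.124), and it was lost without Insulin library 2 or 3, without any 1 of the Viperin + Insulin libraries and without Viperin library 1, which is in neither group. Over its alternatives the adjusted p ran from 0.00305 to 0.317. At an unadjusted p under 0.05 there were 4 of the 9, MTHFD1L, PSPH, PHGDH and SFXN1, against 14.2% of all genes, and 4 by DESeq2, which called none at an adjusted p. PSPH was lower by -0.14 ± 0.05 (adjusted p = 0.182) and SFXN1 by -0.08 ± 0.04 (adjusted p = 0.323), and PHGDH was higher by 0.08 ± 0.04 (adjusted p = 0.290). In all 4 the libraries of the 2 groups lay apart. Those of SHMT1 lay apart too, higher by 0.08 ± 0.04 (adjusted p = 0.46). Here too the share of all genes lying apart was not computed, so nothing is read from libraries lying apart. PSAT1 differed by -0.02 ± 0.04 (adjusted p = 0.908) and SHMT2 by 0.01 ± 0.04 (adjusted p = 0.947). Both comparisons of Viperin share libraries with the comparisons of insulin, so their values are given side by side and not set against each other. The stromal and mesenchymal markers moved with the plasmid as well. In Viperin against Control 2 of 10 were called higher (COL1A2 and COL3A1, collagen chains), beside 1.25% of all genes, and 0 lower, beside 1.04%. In Viperin + Insulin against Insulin 4 were called higher (PDGFRB, COL1A2, COL3A1 and MME), beside 2.09%, and 1 lower (VIM), beside 0.990%. With single libraries left out, 0 (without Control library 3) to 6 (without Control library 1) were higher in the first comparison. In the second 2 to 6 were higher, and 0 or 1 were lower in both. The sums of these markers given above did not overlap between plasmids. The mitochondrial shares did not overlap between plasmids either, lower with pCAG Viperin under vehicle and under insulin. The part of these measures in the Viperin comparisons was not tested.

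The difference between the insulin response with pCAG Viperin and that with empty vector was tested as an interaction term. It was called for 0 of the 9 genes and 0% of all 23041 (edgeR), with 2 of the 9 at an unadjusted p under 0.05 against 5.63% of all genes, and DESeq2 gave 0 and 2. This term is built from the 2 insulin comparisons, which were known when the genes were chosen. Its counts and p-values for the 9 genes are therefore a description, and nothing is read from them. The insulin response of PSAT1 differed by 0.01 ± 0.06 on the log2 scale (adjusted p = 0.997), with a 95% interval of -0.11 to 0.12. The 2 genes at an unadjusted p under 0.05 were PSPH, whose response was smaller with pCAG Viperin by -0.25 ± 0.08 (interval -0.41 to -0.09, adjusted p = 0.547), and SFXN1, by -0.14 ± 0.05 (interval -0.25 to -0.04, adjusted p = 0.661). Neither passed the test. For SHMT1 the difference was 0.11 ± 0.06 and for MTHFD1L 0.11 ± 0.06 (adjusted p = 0.898 and 0.901).

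**Figure D5:**
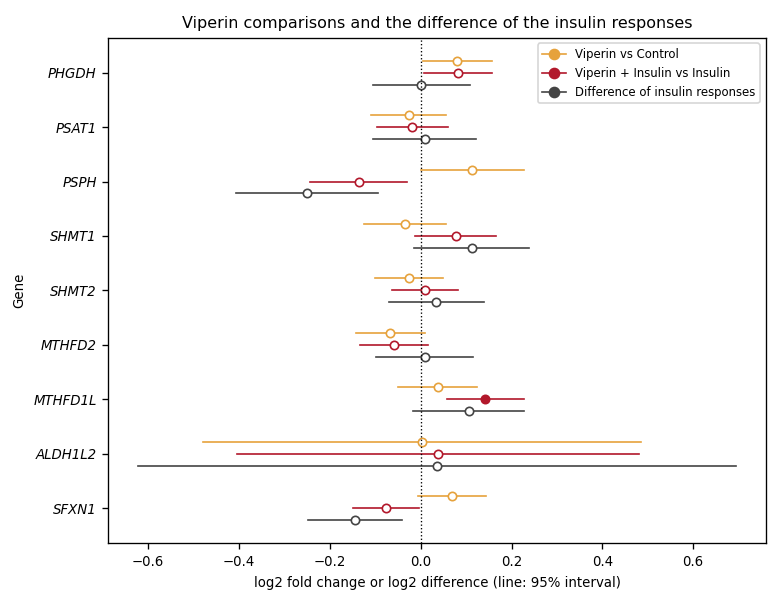
Log2 fold change of each gene in Viperin vs Control and in Viperin + Insulin vs Insulin, and the log2 difference between the 2 insulin responses, with lines for 95% intervals. The filled point, MTHFD1L in Viperin + Insulin vs Insulin, is the one call at an adjusted p of 0.05, and the widest lines are those of ALDH1L2.

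Other folate genes came from a list of 25, of which 23 were tested. This list and those that follow were drawn up with earlier results of these data known, so their insulin calls are a description. MTRR, the reductase that keeps methionine synthase active, rose with insulin and pCAG Viperin (0.16 ± 0.04, adjusted p = 0.0148, edgeR) and was at 0.08 ± 0.04 with empty vector (adjusted p = 0.316). That call was lost without Viperin library 3, without Viperin + Insulin library 1 or 3 and without Control 1 and Viperin 3 (adjusted p up to 0.118). MTR, methionine synthase, was higher in Viperin + Insulin than in Insulin (0.19 ± 0.04, adjusted p = 0.00322), a call lost without Insulin library 2 or Viperin + Insulin library 3 (adjusted p up to 0.119). With insulin and empty vector 0 of the 23 were called higher and 1 lower, beside 2.53% and 2.96% of all genes. With insulin and pCAG Viperin 1 was called higher and 1 lower, beside 2.17% and 2.39%. In these comparisons 22 and 21 of the 23 did not pass, with medians of 0.03 and 0.00. The trifunctional cytosolic MTHFD1, the counterpart of MTHFD2 and MTHFD1L, was at -0.03 ± 0.04 with empty vector and -0.04 ± 0.04 with pCAG Viperin (adjusted p = 0.771 and 0.690). SLC25A32, the mitochondrial folate carrier, could not be judged, since 69.7% of its exon bases are shared with another annotated gene on the same strand.

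Among 24 tested genes of serine use and transport, insulin with empty vector gave 1 higher and 2 lower, beside 2.53% and 2.96% of all genes, and insulin with pCAG Viperin 3 higher and 2 lower, beside 2.17% and 2.39%. The latter counts were 1 and 1 when Viperin 2, Viperin + Insulin 1 or Viperin + Insulin 2 was left out, and 1 and 3 when Viperin 3 was. With empty vector 1 was lower without Insulin library 2 or 3. SERINC3, a membrane protein of the SERINC family, fell in both (-0.14 ± 0.04 in each, adjusted p = 0.00570 and 0.0105), though with pCAG Viperin not without Viperin library 2 or Viperin + Insulin library 1 or 2 (adjusted p up to 0.171). PTDSS1, which makes phosphatidylserine, rose with empty vector (0.15 ± 0.04, adjusted p = 0.00477) and was at 0.08 ± 0.04 with pCAG Viperin (adjusted p = 0.304). CTH, the last enzyme of cysteine synthesis from serine and homocysteine, rose with pCAG Viperin from 30.6 ± 1.29 to 37.2 ± 2.34 CPM (0.28 ± 0.06, adjusted p = 0.000415) and was at 0.09 ± 0.06 with empty vector (adjusted p = 0.472). SERINC5 fell with pCAG Viperin (-0.35 ± 0.07, adjusted p = 0.000363) and was at -0.20 ± 0.07 with empty vector (adjusted p = 0.0863). Between plasmids, SERINC1 was higher in Viperin than in Control (0.14 ± 0.04, adjusted p = 0.0269), but not with only these groups fitted or without Control library 1 or 3 or Viperin library 1 or 2 (adjusted p up to 0.153). SLC1A5, a transporter of neutral amino acids including glutamine and serine, was lower in Viperin + Insulin than in Insulin (-0.16 ± 0.04, adjusted p = 0.00358), and was not called without Insulin library 2 (adjusted p = 0.107).

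Purine synthesis, which takes up one-carbon units, had 1 of 13 genes higher in each insulin comparison, beside 2.53% and 2.17% of all genes. That gene was PRPS1, which makes phosphoribosyl pyrophosphate, at 138 ± 1.49 and 159 ± 2.59 CPM in Control and Insulin (0.20 ± 0.04, adjusted p = 0.000124) and 137 ± 4.96 and 155 ± 3.59 CPM in Viperin and Viperin + Insulin (0.18 ± 0.04, adjusted p = 0.000868). None of the 13 tested genes of the methionine cycle and salvage was called in any comparison in the main edgeR fit. Of all genes, 2.53% were called higher and 2.96% lower with insulin and empty vector, and 2.17% and 2.39% with pCAG Viperin. For Viperin the shares were 1.25% and 1.04% without insulin and 2.09% and 0.990% with it, and 0% for the difference. At an unadjusted p under 0.05 there were 4 of the 13 for insulin with empty vector and 1 with pCAG Viperin. The share of all genes at that p was not computed for insulin, so nothing is read from these counts. For Viperin without and with insulin there were 3 and 4, beside 13.5% and 14.2% of all genes, and 0 for the difference, beside 5.63%. DESeq2 called 1, MAT2A, higher in Viperin than in Control (adjusted p = 0.0344), and 0 in the other comparisons. By edgeR MAT2A was called there without Control library 1 (adjusted p = 0.0330), and ENOPH1 was called higher in Insulin than in Control with filterByExpr and without Control library 3 (adjusted p = 0.0452 and 0.0317). With only the groups compared, MAT2A was called higher and AHCY and ADI1 lower in Viperin + Insulin than in Insulin (adjusted p = 0.0423, 0.0212 and 0.0306). Counts of these lists moved by at most 1 in the insulin comparisons when Control 1 and Viperin 3 were left out, and MTRR was then no longer called.

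ATF4 and its targets outside the 9 genes were called higher with insulin in 9 of 25 cases with empty vector and 9 of 25 with pCAG Viperin, beside 2.53% and 2.17% of all genes, and lower in 0 of either. The list was drawn up with insulin results of these libraries known, so these counts are not independent evidence of its direction. Their median log2 fold changes were 0.11 and 0.14, beside -0.01 and 0.00 over all genes. Leaving out Control 1 and Viperin 3 the counts were 10 and 9, and leaving out single libraries gave 6 to 10 higher with empty vector and 7 to 9 with pCAG Viperin. The lowest count, 6, came without Control library 1 and again without Insulin library 2, and 1 gene was called lower without Control library 2 or Insulin library 1. SLC3A2 and SLC7A5, the heavy and light chains of a transporter of large neutral amino acids, rose from 126 ± 10.4 to 172 ± 7.85 CPM (0.44 ± 0.04, adjusted p = 5.50e-11) and from 49.6 ± 0.391 to 64.2 ± 0.822 CPM (0.37 ± 0.05, adjusted p = 9.68e-09) with empty vector. With pCAG Viperin they rose by 0.33 ± 0.04 and 0.40 ± 0.04 (adjusted p = 1.62e-07 and 6.71e-10). DDIT4, an inhibitor of mTORC1 signalling, rose by 0.34 ± 0.05 and 0.36 ± 0.05 (adjusted p = 2.32e-06 and 3.81e-07). The insulin calls of these 3 genes held in every alternative at 0.05, though every alternative used the libraries from which the genes were picked.

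ATF4 mRNA itself rose with insulin by 0.14 ± 0.04 with empty vector and by 0.18 ± 0.04 with pCAG Viperin (adjusted p = 0.0195 and 0.000937), and it was higher in Viperin + Insulin than in Insulin by 0.15 ± 0.04 (adjusted p = 0.0153). The first of these calls was lost without Control library 2 or Insulin library 2 (adjusted p up to 0.135), and the last without Insulin library 3 or Viperin + Insulin library 1 or 3 (adjusted p up to 0.170). VEGFA, an angiogenic growth factor, rose with insulin in pCAG Viperin cells from 46.6 ± 2.38 to 62.7 ± 3.51 CPM (0.43 ± 0.05, adjusted p = 2.02e-09) and was at 0.11 ± 0.05 with empty vector (adjusted p = 0.239). The difference between these 2 responses was 0.32 ± 0.07 (adjusted p = 0.0532). It passed in 7 of 20 alternatives, among them those without Control library 3 (adjusted p = 0.000890), Viperin library 3 (0.0166) or Viperin + Insulin library 2 (0.0357), and over all 20 the adjusted p ran up to 0.330. NUPR1, a stress-response regulator, was higher with Viperin both without and with insulin, by 0.28 ± 0.06 and 0.36 ± 0.06 (adjusted p = 0.00599 and 0.000134), the first not without Control library 2 (adjusted p = 0.134). In Viperin against Control, 1 of the 25 genes was called higher (NUPR1) and 1 lower (WARS1), beside 1.25% and 1.04% of all genes. In Viperin + Insulin against Insulin 3 were higher (ATF4, NUPR1 and VEGFA) and 2 lower (SLC3A2 and ATF5), beside 2.09% and 0.990%. The medians were -0.04 and -0.02. With single libraries left out, 0 or 1 were higher and 0 to 2 lower in the first comparison. In the second 2 to 4 were higher and 0 to 3 lower. ASNS, asparagine synthetase, was near 0 at 0.321 to 0.359 CPM by group, but 49.3% of its exon bases are shared with another annotated gene on the same strand, so its level is uncertain. None of the 9 serine and one-carbon genes had such an overlap beyond 1.04% of exon bases in SHMT1, and pseudogenes of these genes held at most 3 counts in a library.

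Across the 12 libraries, the genes most like PSAT1 by Pearson's r of log2 CPM, among 9361 averaging 10 CPM or more, were TSR1 (0.988), MARS1 (0.966), XPOT (0.964), SLC7A5 (0.961) and XPO1 (0.958). MARS1 is the methionyl-tRNA synthetase and XPOT the exporter of tRNA. Of the other serine and one-carbon genes SHMT2 was at 0.929 and SFXN1 at 0.907, MTHFD2 at 0.820 and PSPH at 0.764. PHGDH was at 0.026, MTHFD1L at -0.16 and SHMT1 at -0.81. The 12 libraries share 4 groups and 1 scaling, so these values are a description. Taken within groups, as deviations from the group means, PSAT1 stood at 0.11 with SHMT2 and 0.67 with SFXN1. In the same way it stood at 0.51 with PSPH, 0.49 with MTHFD2, 0.21 with MTHFD1L, -0.05 with SHMT1 and -0.18 with PHGDH. ALDH1L2, at low counts, was at -0.83 within groups and at 0.10 over the 12 libraries.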

How the data were processed

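The data are mRNA-seq of 12 libraries, 3 per group. After trimming (cutadapt, Trim Galore) and quality control (FastQC), the authors mapped the read pairs to hg38 by STAR and deposited its raw counts for each gene and strand, without normalization or filter. Tool versions: not given in the sources used here. Reverse-strand counts were used, and reads assigned to no gene (20.6% to 24.9% of pairs, those mapped to several places included) stayed out of the library sizes. Symbols came from GENCODE 44 for 60357 of 60617 IDs.

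The 23041 genes averaging 1 count or more over the libraries were normalised by TMM and fitted as 4 group means with edgeR 4.0.16 (R 4.3.3, robust quasi-likelihood, prior count 2), with Benjamini-Hochberg adjustment over all genes. Values are CPM with TMM scaling. The study used DESeq2 and a threshold of 0.001. Genes here were called at 0.05. The fit was tested on simulated data.

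The 9 genes and all lists were chosen with earlier results of these data known. All 9 are named, with up to 4 genes per list for the smallest p with insulin and up to 2 for Viperin. MTHFD1, SLC25A32, ATF4, ATF5, WARS1, ASNS, MAT2A, ENOPH1, AHCY and ADI1 were added after their values were seen. The genes most like PSAT1 were the 5 with the highest r. Alternatives were RLE factors, RSAD2 and mitochondrial genes left out of the scaling, 2 other filters, DESeq2 1.42.0, counts of both strands, the replicate number as a block, only the groups compared, a threshold of 0.001 and each library left out. Leaving out Control 1 and Viperin 3 together, and exon union lengths, were added after the data were seen. Figures were drawn with matplotlib 3.10.9. The values of 1 gene of the folate list are not reported here, though the list's counts and medians include it.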

Additional observations from a re-analysis of the deposited data

How the results depend on the processing

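Of 720 recomputed values of the 9 genes, 653 kept their direction and their side of the threshold, 18 fell below it, 2 rose above it and 47 changed sign, and none of those 47 had been called. Insulin against Control called 5 of the 9 genes, 3 at a threshold of 0.001 and 3 to 5 with single libraries left out (3 without Insulin library 2 or 3). The calls lost were SHMT1 and SHMT2, SHMT1 also without Control library 1 and SHMT2 without Control library 2. Viperin + Insulin against Viperin called 2, 1 at 0.001, and 3 (MTHFD2 added) with only the groups compared and without Control library 3. Viperin + Insulin against Insulin called 1, but 0 with RLE size factors, with RSAD2 and mitochondrial genes left out of the scaling, with no filter on low counts, with filterByExpr, with DESeq2, with unstranded counts and at 0.001, 2 with only the groups compared (PSPH and MTHFD1L), and 0 to 1 with single libraries left out. The causes were not tested. The sign changed for the following values. With single libraries left out, PHGDH ran from -0.0185 to 0.0305 and from -0.0193 to 0.0330 in the insulin comparisons and ALDH1L2 from -0.0877 to 0.414 with empty vector. For Viperin with vehicle, PSAT1 ran from -0.0637 to 0.00957, MTHFD1L from -0.0033 to 0.0969 and ALDH1L2 from -0.215 to 0.235. For Viperin with insulin, PSAT1 ran from -0.0406 to 0.0121, SHMT2 from -0.00353 to 0.0268 and ALDH1L2 from -0.199 to 0.303, and unstranded counts gave SHMT2 -0.00228 and ALDH1L2 -0.0436. For the difference of the insulin responses, PHGDH ran from -0.0286 to 0.0289, PSAT1 from -0.0276 to 0.0457, MTHFD2 from -0.0336 to 0.0255 and ALDH1L2 from -0.202 to 0.300. PHGDH was there at -0.0026 with RLE size factors, -0.00742 with RSAD2 and mitochondrial genes out of the scaling, -0.00791 with no filter, -0.00145 with filterByExpr, -0.00253 with DESeq2 and -0.0104 with unstranded counts. PSAT1 was at -2.17e-05 with no filter and -0.000621 with unstranded counts, and ALDH1L2 at -0.0555 with unstranded counts and -0.0407 without Control 1 and Viperin 3. With a library left out, its group was taken to vary like the others.

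The replicate numbers in the sample titles are not stated to pair the libraries, and deviations of same-numbered libraries from their group means correlated at -0.0209 to 0.0235 over 18 pairs. With the replicate block the 5 comparisons called 5, 2, 0, 1 and 0 of the 9 genes, as without it, and the difference of the insulin responses of VEGFA passed (adjusted p = 0.0360, against 0.0532 without the block). Depth limited ALDH1L2 alone among the 9, at 26 to 72 counts per library.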
